A study of Mus musculus with 36 samples.

Results

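The CXC chemokines described here are 8 genes, Cxcl1, Cxcl2, Cxcl5, Cxcl9, Cxcl10, Cxcl12, Cxcl13 and Pf4, that were looked up by the gene symbol of the probe annotation. The array measured 8 of the 8 among 6540 genes with a symbol, each with 1 of its 8129 oligonucleotides, and each oligonucleotide was printed as 2 spots. RNA came from the quadriceps muscle of mice that lack beta-sarcoglycan (BSG) or gamma-sarcoglycan (GSG), proteins of the dystrophin-associated complex that anchors the muscle fibre membrane, and was hybridised on 36 dual-channel arrays. In each strain 2 mice were taken at each of 8 later ages, which were 2.5 and 4 weeks, every 2 weeks between 6 and 14 weeks, and 20 weeks, with mice of 1 week as the baseline. Every group was therefore sarcoglycan-deficient, the baseline included, and no healthy muscle enters any comparison. The mice of an age were mostly littermates, and the hour of sampling differed between ages and strains, so litter and hour cannot be told apart from age. Sex and genetic background of the sarcoglycan-deficient strains are not given in the sources used here, and wild-type and mdx arrays were not analysed here.

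Within a strain the arrays formed 2 closed loops of 9 mice: each age was hybridised against the age before it, and the last array of a loop carried 1 week in the Cy5 channel and 20 weeks in the Cy3 channel. All values below are log2 ratios to the 1-week mouse of the same loop, so that 1 is a doubling. They are changes and not levels: the signal of 1 gene cannot be set against that of another, and the level in BSG muscle cannot be set against that in GSG muscle. For the same reason the identity of the tissue cannot be checked by the level of its markers. Since whole muscle was used, a change in the number of cells that make a transcript and a change in the amount per cell cannot be told apart. The direction of the ratios is likely rather than stated: it rests on the dye labels and on Dlk1, an imprinted gene of newborn muscle, which at 20 weeks lay between -3.97 and -2.80 in the 4 loops. With the opposite direction every sign below would turn.

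Chemokines are small secreted proteins that guide leukocytes along a gradient, and the CXC family is named after a pair of cysteines parted by another residue. Cxcl1, Cxcl2 and Cxcl5 bind Cxcr2 and attract neutrophils. They are classical targets of NF-kappa-B downstream of TNF and interleukin-1. Cxcl9 and Cxcl10 are induced by interferons and attract T and natural killer cells that carry Cxcr3. Cxcl13 attracts B cells through Cxcr5 and is made where lymphoid tissue forms, Cxcl12 is made by stromal cells under resting conditions and retains cells with Cxcr4, and Pf4 is stored in the granules of platelets. Muscle without sarcoglycans has fragile fibres that go through rounds of necrosis, infiltration by leukocytes and regeneration in the weeks after birth.

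In the mouse annotation 7 of these genes lie on chromosome 5, and Cxcl12 lies on chromosome 6. Promoters of 7 of the 8 members were found in the RefSeq table (build GRCm38.p6), and the 250 bases before the start site were searched on both strands for GGGANNTTCC, a form of the NF-kappa-B site, and for GAAANNGAAA, a form of the interferon-stimulated response element. The NF-kappa-B form was found in Cxcl1, Cxcl2 and Cxcl10, against 1.21% of all 32851 promoters, and the interferon form in Cxcl10, against 2.98% of all promoters. The promoters of Cxcl9, Cxcl12, Cxcl13 and Pf4 hold neither string of letters in this window. The 3 promoters with a match are shown so that the matches can be read. In BSG these genes had their highest value in the same mouse, that of 20 weeks in loop 1, but so did Cxcl9, whose promoter has no match. Capitals mark the matches. The stretches of Cxcl1 (chr5:90891135-90891244, plus strand) and Cxcl2 (chr5:90903789-90903898, plus strand) are the last 110 bases before the start site, and that of Cxcl10 (chr5:92348890-92349109, minus strand) the last 220.
Cxcl1: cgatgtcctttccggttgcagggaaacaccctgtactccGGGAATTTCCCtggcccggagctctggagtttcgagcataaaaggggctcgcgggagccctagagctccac
Cxcl2: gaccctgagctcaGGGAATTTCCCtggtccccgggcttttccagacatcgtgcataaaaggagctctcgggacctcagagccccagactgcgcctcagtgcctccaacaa
Cxcl10: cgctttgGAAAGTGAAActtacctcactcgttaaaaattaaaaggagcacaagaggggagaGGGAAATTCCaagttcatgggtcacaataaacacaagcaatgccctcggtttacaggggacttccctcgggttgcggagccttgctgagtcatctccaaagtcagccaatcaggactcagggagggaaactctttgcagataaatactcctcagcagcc
In Cxcl1 and Cxcl2 the same run of letters matches the motif on either strand, starting 71 and 97 bases before the start site. In Cxcl10 the interferon form starts 213 and the NF-kappa-B form 159 bases before it. A match is a description of the sequence, and binding was not measured.

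The arrays differed in quality. The correlation of the 2 spots over the oligonucleotides of an array ran from -0.0961 to 0.765, with a median by loop of 0.316 and 0.583 in BSG loops 1 and 2, and of 0.364 and 0.645 in GSG loops 1 and 2. On 9 arrays it was below 0.3, of which 4 belonged to BSG loop 1, 4 to the first GSG loop and 1 to the second. The 20-week value of a loop rests to 88.9% on the closing array, where the spots correlated at 0.765 and 0.764 in BSG and at 0.482 and 0.552 in GSG. Depth has no counterpart on arrays, and the number of mice limits the precision.

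In neither strain did a member pass a test at an adjusted p under 0.05. The moderated F test of limma for any change with age called 0 of the 8 members in BSG, against 8 of 8129 oligonucleotides (0.0984%), and 0 of 8 in GSG, against 48 (0.59%). At an unadjusted p under 0.05 it picked 2 members in BSG, Cxcl1 and Cxcl13, where 4% of all oligonucleotides were picked, and 0 in GSG, where 7.81% were. At 20 weeks against 1 week limma called 0 of 8 in BSG (1.28% of all oligonucleotides) and 0 of 8 in GSG (3.74%). At an unadjusted p under 0.05, Cxcl1, Cxcl9 and Cxcl10 were picked in BSG, with 11.6% of all, and Cxcl10 in GSG, with 14.7% of all. Over the 8 later ages together, 0 of the 64 pairs of member and age were called in BSG, against 0.172% of all pairs, and 0 of 64 in GSG, against 0.549%. The unadjusted counts were 4 of 64 in BSG (5.08% of all pairs) and 1 of 64 in GSG (6.9%), shares near or below the background. The mean of the later ages gave 0 called in BSG (background 0.0738%, and 6.68% unadjusted, with 0 members) and 0 in GSG (0.652%, and 8.35% unadjusted, with 0 members). The quadratic coefficient of the time course gave 0 members in either strain and 0% of all oligonucleotides at the adjusted threshold, and 0 members against 1.61% in BSG and 2.48% in GSG without adjustment. The median change of the 8 members at 20 weeks was 0.39 in BSG and 0.25 in GSG, where the median of all oligonucleotides was -0.02 and -0.01.

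Behind these counts stand pairs of mice that often lay far apart, and the members are therefore given mouse by mouse.

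**Figure D1:**
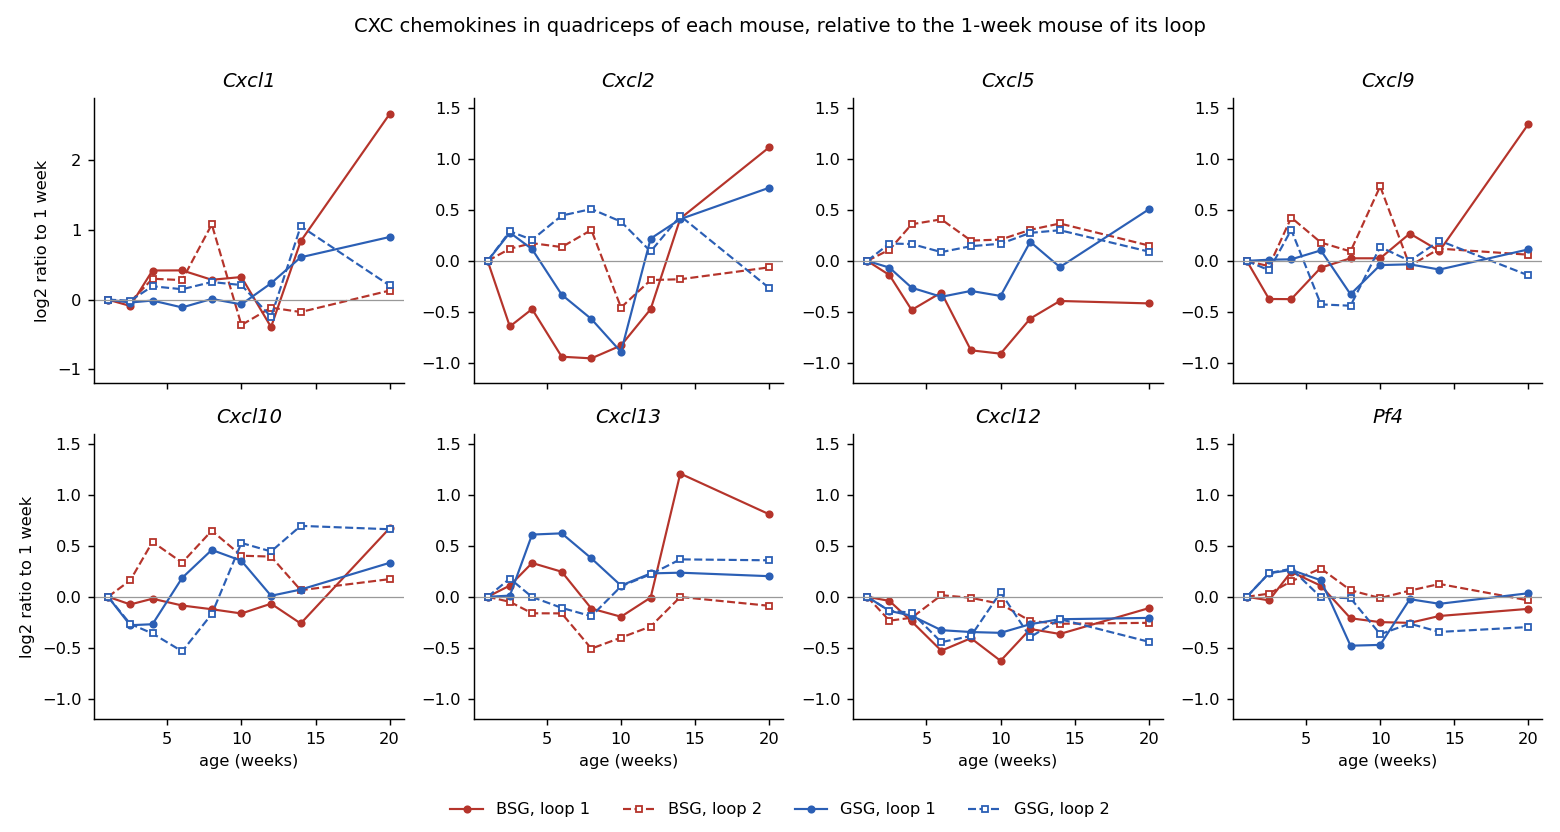
Log2 ratio of each CXC chemokine to the 1-week mouse of its loop (y axis) against age in weeks (x axis), 1 panel per gene, with BSG in red, GSG in blue, loop 1 as filled circles on solid lines and loop 2 as open squares on dashed lines. The panel of Cxcl1 has a taller axis, since the 20-week mouse of BSG loop 1 reached 2.67, while Cxcl12 stayed at or below 0.04 in the 16 later mice of each strain.

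Cxcl1, also known as KC, is the main neutrophil attractant of the mouse together with Cxcl2. At 20 weeks it had a ratio of 2.67 in the mouse of BSG loop 1 and 0.13 in the mouse of BSG loop 2, and of 0.90 and 0.20 in the GSG mice of loops 1 and 2. The first of these, 6.34-fold above 1 week, was the highest value of any member in any mouse and stood at the 99.9th percentile of the 8129 oligonucleotides of that mouse. It was seen on both arrays that carry this mouse: the closing array gave 2.70 and 2.61 in its 2 spots, and the array of 20 over 14 weeks gave 1.32 and 2.35. The sum of the other 8 arrays of the loop, a route from 1 to 20 weeks that does not use the closing array, gave 2.75. Such a route adds up any dye bias of the gene, and here it runs over the 4 arrays of BSG loop 1 with spot correlations below 0.3. In BSG loop 2 the closing array gave 0.00 and the other route 1.17, so that the routes of that loop disagreed. The limma estimate for 20 weeks against 1 week was 1.40 ± 0.41 in BSG (SE, n = 2; 95% interval 0.55 to 2.25, adjusted p = 0.101) and 0.55 ± 0.41 in GSG (SE, n = 2; adjusted p = 0.639). Without BSG loop 2, which leaves 1 BSG mouse per age, the value was 2.67. Without the arrays of the 20-week mouse of BSG loop 1 it was 0.23. The size of this change thus rests on 1 mouse.

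At the earlier ages Cxcl1 had single high mice in either strain. BSG loop 2 reached 1.08 at 8 weeks where loop 1 had 0.29, and GSG loop 2 reached 1.05 at 14 weeks where loop 1 had 0.61. At 14 weeks the BSG mice had 0.84 and -0.18. Over the 16 BSG mice the lowest, median and highest ratio were -0.39, 0.28 and 2.67, against -0.25, 0.17 and 1.05 over the 16 GSG mice. In BSG the ages ran in the order 20, 8, 4, 6, 14, 10, 2.5 and 12 weeks from the highest estimate (1.40) to the lowest (-0.25). In GSG the order began with 14 weeks (0.83) and 20 weeks (0.55) and ended with 2.5 weeks (-0.03). In these and in all 16 courses of the members, 0 of the 112 gaps between neighbours in that order exceeded the sum of the SE of both ages.

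Cxcl2, also known as MIP-2, is the closest relative of Cxcl1. Its 20-week ratios were 1.11 and -0.06 in the BSG mice of loops 1 and 2, and 0.72 and -0.27 in the GSG mice. As for Cxcl1, the mouse of loop 1 was the higher in each strain, and the pairs did not lie on the same side of 1 week. The limma estimate for 20 weeks was 0.53 ± 0.31 (SE) for BSG, with an adjusted p of 0.572, and 0.23 ± 0.31 for GSG, with an adjusted p of 0.864. Before that, the mean of the spots of Cxcl2 lay below 1 week in BSG loop 1 at all 6 ages from 2.5 to 12 weeks, between -0.96 and -0.47. At 2.5, 4 and 6 weeks this rested on the first spot, with -1.26, -1.02 and -1.74. The second spot had -0.03, 0.08 and -0.14 there. BSG loop 2 was above 1 week at the ages from 2.5 to 8 weeks, between 0.12 and 0.30. In GSG the loops parted at 10 weeks, with -0.89 in loop 1 and 0.38 in loop 2. The arrays of a loop should sum to 0 for a gene without measurement error or dye bias. Those of Cxcl2 summed to -1.43 and -0.97 in BSG and to -1.41 and -1.11 in GSG. The fit spreads such a sum evenly over the 9 arrays.

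Cxcl5, a further ligand of Cxcr2 that in other tissues is made mainly by epithelium, did not share the high value of that mouse. It had -0.42 and 0.15 in the 20-week BSG mice and 0.50 and 0.09 in the GSG mice, with estimates of -0.13 ± 0.16 (adjusted p = 0.924) and 0.30 ± 0.16 (adjusted p = 0.43). The BSG loops lay on opposite sides of 1 week at all 8 ages: loop 1 was below and loop 2 above, with a largest gap of 1.12 at 10 weeks. A gap of this kind at every age shares the 1-week mouse of each loop, which enters all its values.

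Cxcl9, or Mig, is the chemokine most dependent on interferon gamma. Its ratio at 20 weeks was 1.34 and 0.06 in the BSG mice of loops 1 and 2, and 0.11 and -0.14 in the GSG mice. The mouse of BSG loop 1 was again the one that stood out, 2.53-fold above 1 week, at the 97.2th percentile of its oligonucleotides. The closing array gave 1.22 and 1.45 in its spots and the other route 1.37, while the array of 20 over 14 weeks gave 0.82 and 1.68. The estimate was 0.70 ± 0.27 in BSG (95% interval 0.14 to 1.26, adjusted p = 0.275) and -0.01 ± 0.27 in GSG (adjusted p = 0.998). The BSG estimate was 1.34 without loop 2, which leaves 1 mouse per age, and 0.06 without the arrays of the 20-week mouse of loop 1. At the other ages the BSG mice lay between -0.38 and 0.73 and the GSG mice between -0.44 and 0.30, the highest being BSG loop 2 at 10 weeks.

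Cxcl10, or IP-10, is induced by interferons of either type. At 20 weeks it had 0.67 and 0.17 in the BSG mice, and 0.33 and 0.66 in the GSG mice, all 4 above 1 week. The estimates were 0.42 ± 0.18 in BSG (95% interval 0.05 to 0.80, adjusted p = 0.357) and 0.50 ± 0.18 in GSG (95% interval 0.12 to 0.87, adjusted p = 0.149), or 1.34-fold and 1.41-fold. In GSG loop 2 the spots of the closing array disagreed, at 0.06 and 1.29, whereas the other route gave 0.54. In GSG both mice were below 1 week at 2.5 weeks (-0.28 and -0.27) and at 4 weeks (-0.27 and -0.36), and both were above it at 10, 12, 14 and 20 weeks, where they lay between 0.01 and 0.70. The GSG loop 2 values at 10, 12 and 14 weeks rested mostly on the second spot. It had 0.92, 0.88 and 1.25 there, against 0.14, 0.01 and 0.15 in the first spot. In BSG loop 1 the mean of the spots was slightly below 1 week at all 7 ages from 2.5 to 14 weeks, between -0.26 and -0.02. From 2.5 to 10 weeks its spots disagreed in sign, as at 4 weeks with 0.42 and -0.46. In BSG loop 2 all 8 ages were above 1 week, between 0.06 and 0.65. None of these ages was called in either strain.

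Cxcl13, or BLC, reached its highest values late in BSG loop 1, with 1.21 at 14 weeks and 0.81 at 20 weeks, where loop 2 had 0.00 and -0.09. The array of 14 over 12 weeks gave 1.00 and 1.05 in its spots, and the closing array gave 0.97 and 1.03 for 20 weeks. The other route to 20 weeks gave -0.71, so that the arrays of this loop summed to -1.71 and the routes disagreed in sign. The estimate was 0.60 ± 0.27 at 14 weeks (adjusted p = 0.905) and 0.36 ± 0.20 at 20 weeks (adjusted p = 0.534) in BSG. In GSG 13 of the 16 mice were above 1 week, between -0.19 and 0.62, and both mice were above it at 5 ages. The estimate at 20 weeks was 0.28 ± 0.20 (adjusted p = 0.623), from 0.20 and 0.36 in the mice of loops 1 and 2.

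Cxcl12, or SDF-1, lay below 1 week in most mice. These were 15 of 16 in BSG, where the values ran from -0.63 to 0.02 with a median of -0.24, and in GSG 15 of 16, from -0.44 to 0.04 with a median of -0.24. The 20-week mice had -0.11 and -0.26 in BSG and -0.21 and -0.44 in GSG. The mean of the 8 later ages was -0.24 ± 0.16 in BSG (95% interval -0.58 to 0.09, adjusted p = 0.917) and -0.26 ± 0.16 in GSG (95% interval -0.59 to 0.07, adjusted p = 0.75). The 8 values of a loop share 1 mouse of 1 week, so that these signs stem from 4 baselines and are not independent observations. Without the 9 arrays of discordant spots the GSG mean was 0.12, on the other side of 0. Those arrays include that of 4 over 2.5 weeks in both GSG loops. In that fit the GSG loops are open, and a constant dye bias no longer cancels. The Cxcl12 arrays of the GSG loops summed to -0.84 and -0.94, and the part of this in the value of 0.12 was not tested.

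Pf4, platelet factor 4, stayed close to 1 week. At 20 weeks it had -0.12 and -0.04 in the BSG mice and 0.03 and -0.30 in the GSG mice, with estimates of -0.08 ± 0.14 (adjusted p = 0.963) and -0.13 ± 0.14 (adjusted p = 0.802). Both GSG mice were above 1 week at 2.5 weeks (0.23 and 0.23) and 4 weeks (0.26 and 0.28) and below it at 10 weeks (-0.47 and -0.37), whereas the BSG mice had 0.24 and 0.15 at 4 weeks and -0.25 and -0.01 at 10 weeks. The 16 BSG mice lay between -0.26 and 0.28, the narrowest range of the 8 members in that strain.

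**Figure D2:**
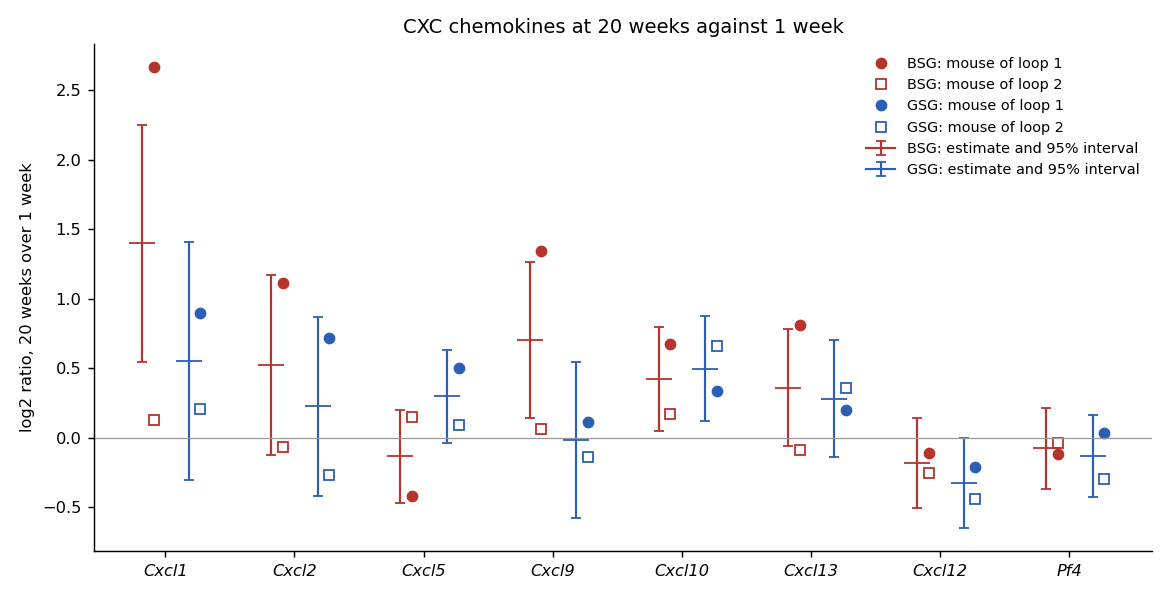
Log2 ratio of 20 weeks over 1 week (y axis) for each member, BSG in red to the left of GSG in blue. Filled circles and open squares are the mice of loops 1 and 2, and bars give the limma estimate with its 95% interval. In BSG the mouse of loop 1 lies above that of loop 2 for Cxcl1, Cxcl2, Cxcl9, Cxcl10, Cxcl13 and Cxcl12, by 2.53 for Cxcl1.

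The question of the study, whether time courses differ between the strains, was put to each member with the Hotelling tests of its methods. The temporal test, on the coefficients of polynomials of degree 2, selected 0 of the 8 members and 0% of all oligonucleotides after adjustment, and 0 members against 4.4% of all at an unadjusted p under 0.05. The non-temporal test, on the 8 age parameters, selected 0 members and 0% after adjustment, and 0 members against 1.56% without it. The paper lists genes, Matn2 and Dpp4 among them, that its pairwise temporal test separated between BSG and GSG after adjustment. The tests as written here did not return such calls, so the selection of 0 members says little about the members. The limma contrasts of BSG minus GSG called 0 members for the mean of the later ages (0% of all, 3.56% unadjusted with 0 members) and 0 of 64 pairs of member and age (0% of all pairs, 2.87% unadjusted with 0 member pairs). The largest differences at 20 weeks were 0.85 ± 0.59 for Cxcl1 (95% interval -0.36 to 2.05, adjusted p = 0.842), 0.72 ± 0.38 for Cxcl9 (95% interval -0.08 to 1.51, adjusted p = 0.772) and -0.43 ± 0.23 for Cxcl5 (95% interval -0.90 to 0.04, adjusted p = 0.767). For Cxcl2 the difference was 0.30 ± 0.44 (95% interval -0.61 to 1.21, adjusted p = 0.93). The intervals of Cxcl1, Cxcl2 and Cxcl9 allow a difference of over a doubling, so equality of the strains is not shown. For Cxcl10, Cxcl12, Cxcl13 and Pf4 the intervals at 20 weeks lay within -0.61 and 0.67.

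In 4 of the 64 pairs of member and age both BSG mice lay on one side of 1 week and both GSG mice on the other. For Cxcl13 these were 10 weeks, with -0.20 and -0.40 in BSG and 0.11 and 0.10 in GSG, and 12 weeks, with -0.01 and -0.29 in BSG and 0.23 and 0.22 in GSG. For Cxcl9 it was 8 weeks, with 0.03 and 0.09 in BSG and -0.33 and -0.44 in GSG. For Cxcl2 it was 12 weeks, with -0.47 and -0.19 in BSG and 0.22 and 0.09 in GSG. The adjusted p of the difference was 0.999 or above in all 4.

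**Figure D3:**
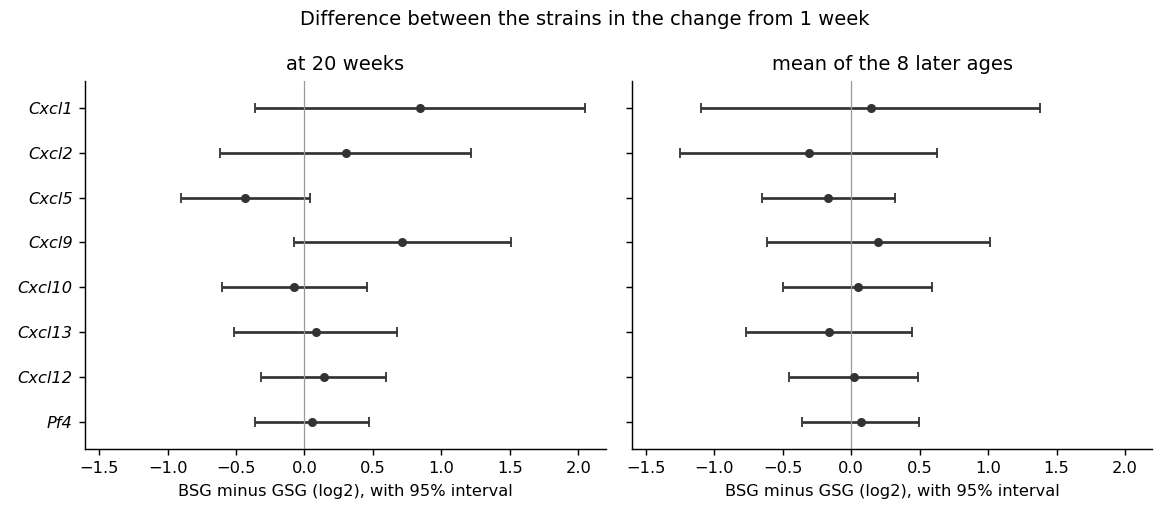
Difference of BSG minus GSG in the log2 change from 1 week (x axis) for each member (y axis), at 20 weeks on the left and over the mean of the 8 later ages on the right. Points are limma estimates with 95% intervals, and every interval contains 0.

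How far a value of these genes can be read depends on the oligonucleotide, and the 2 spots give a partial measure of it. Over the 36 arrays the spots correlated at 0.863 for Cxcl1, 0.707 for Cxcl10, 0.705 for Cxcl9, 0.565 for Cxcl2, 0.382 for Cxcl13, 0.381 for Cxcl5 and 0.201 for Pf4, and at -0.009 for Cxcl12. The median over all oligonucleotides was 0.322. For Cxcl12 a high value in one spot thus did not go with a high value in the other. A correlation also rises with the spread of a gene over the arrays, so it does not rank precision. The SD of the spots was 0.744 and 0.814 for Cxcl1, and 0.275 and 0.299 for Cxcl12. Cxcl1 had the highest spot correlation and was the most variable member. Its residual SD around the fitted ages was 0.673, at the 96.4th percentile of all oligonucleotides. That of Pf4 was 0.191, at the 9.03th percentile. The residual holds the difference between the mice of a pair, so a gene with single high mice has a wide interval.

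**Figure D4:**
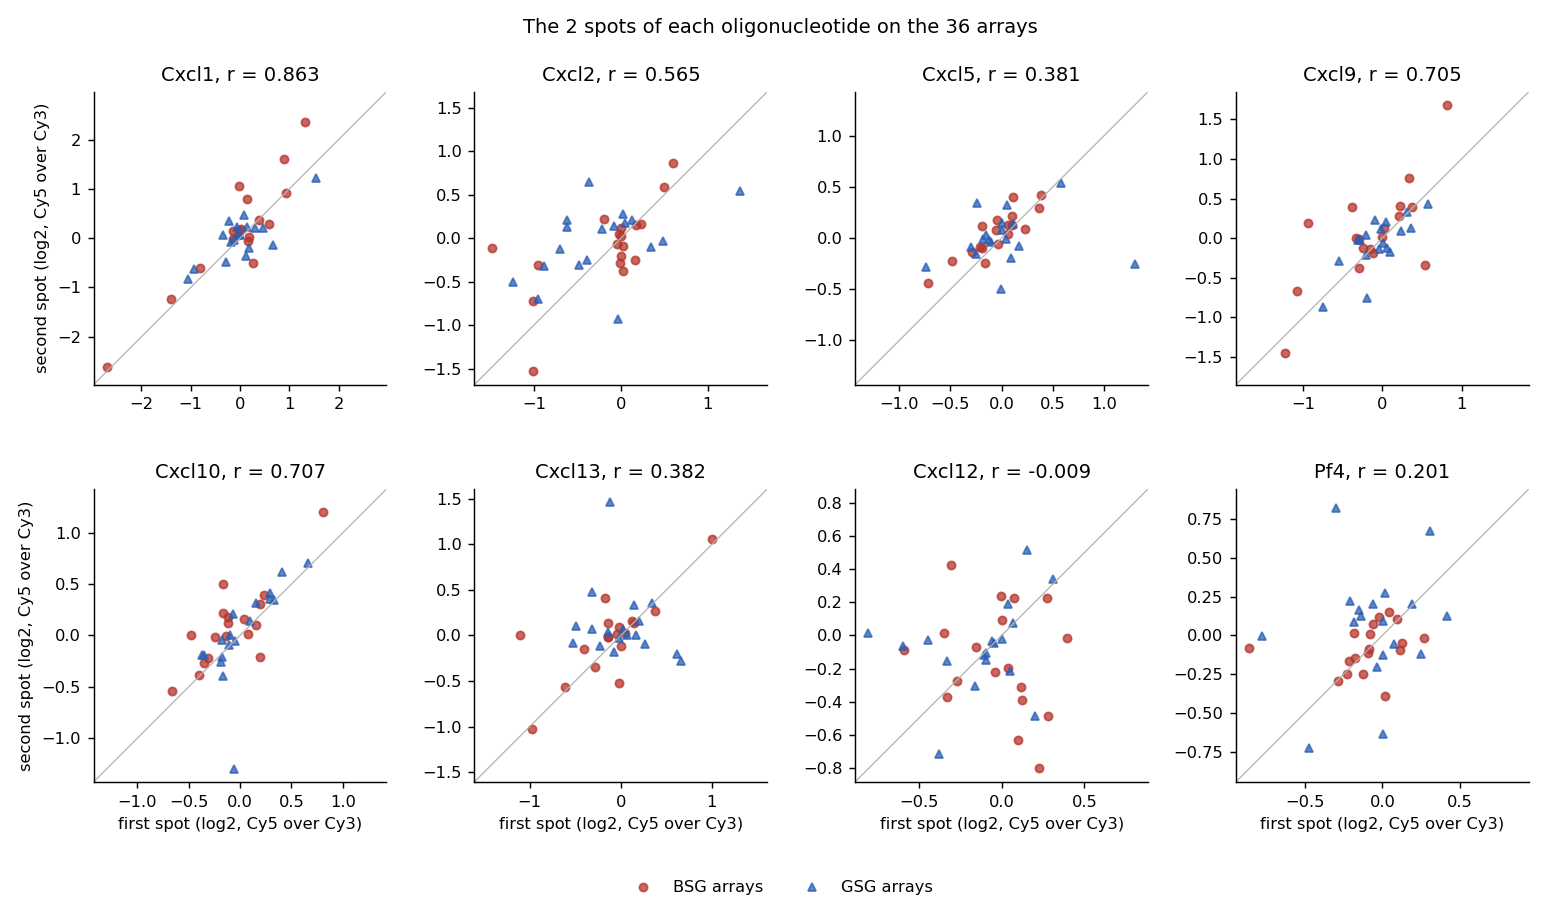
First spot (x axis) against second spot (y axis) of each oligonucleotide, as log2 of Cy5 over Cy3, 1 point per array, with BSG arrays as red circles and GSG arrays as blue triangles and the line of equality in grey. The points of Cxcl1 follow the line (r = 0.863) and those of Cxcl12 do not (r = -0.009).

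Among themselves the members were compared by their course over the 36 mice, each loop centred on its mean. The correlations are descriptions across mice that share loops and arrays. Cxcl1 and Cxcl2 were the most alike (r = 0.705), followed by Cxcl1 with Cxcl9 (0.538), Cxcl2 with Cxcl5 (0.470) and Cxcl1 with Cxcl10 (0.463). Cxcl9 and Cxcl10, which share interferon control and the receptor Cxcr3, had r = 0.417. The lowest was Cxcl10 with Pf4 (-0.558).

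Outside the family, the course most like that of Cxcl1 was Il6 (r = 0.745), the gene of interleukin-6, followed by Ch25h (0.717), a cholesterol hydroxylase induced by interferons, and Egr2 (0.707), an early growth response transcription factor. At 20 weeks Il6 had 2.98 and 0.47 in the BSG mice and 0.06 and -0.27 in the GSG mice, and its BSG estimate of 1.73 was called (adjusted p = 0.0324). Egr2 had 2.52 and -0.13 in BSG and -0.20 and -0.16 in GSG, and Ch25h had 1.70 and 0.40 in BSG and 0.10 and 0.21 in GSG. All 3 had their high value in the same mouse as Cxcl1. They were picked for likeness to the course of Cxcl1, in which that mouse is the highest, so the shared mouse follows largely from the choice. The course of Cxcl9 was most like those of Irgm2 (0.695), an interferon-induced GTPase, Ch25h (0.691) and Il1b (0.685), the gene of interleukin-1 beta, which had 1.04 and 0.16 in the BSG mice and -0.29 and -0.01 in the GSG mice. Over all oligonucleotides the SD of the 20-week ratios was 0.539 in that mouse, against 0.297 in the other BSG mouse, 0.434 and 0.505 in the GSG mice. The part of this spread in the members' values was not tested.

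The nearest courses to the other members were Gata4 (0.836), Barx1 and Tfcp2 (both 0.818) for Cxcl2, Dnajb8 (0.757), Zfp57 (0.735) and Foxa2 (0.729) for Cxcl5, and Cd46 (0.705), Samsn1 (0.687) and Sebox (0.685) for Cxcl10. For Cxcl12 they were Aox4 (0.754), Prep (0.737) and Stip1 (0.717), for Cxcl13 Ugt1a6a and Afap1l1 (both 0.672) and Itgb3 (0.634), and for Pf4 Nkx3-2 and Gp5 (both 0.794) and Gimap1 (0.776). Gp5, like Pf4, is a gene of platelets, where it encodes a subunit of the receptor for von Willebrand factor, and it had -0.24 and 0.02 in the 20-week BSG mice and 0.07 and -0.76 in the GSG mice. The 3 genes nearest to Cxcl2 had 20-week estimates from 0.04 to 0.19 in BSG, and from -0.09 to 0.15 for GSG.

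The rest of the chemokine system on the array gives the setting. Of the other CXC chemokines 5 of 7 were measured and 0 were called in either strain. Cxcl14, which is made by epithelium and stroma, had 0.60 and 0.09 in the 20-week BSG mice and 3.66 and -0.45 in the GSG mice, and its mean over the later ages was 0.23 in BSG and 2.04 in GSG. Cxcl11, a further ligand of Cxcr3, had 0.52 and 0.04 in BSG and -0.02 and -0.04 in GSG, and Ppbp, a chemokine of platelets, had 0.07 and 0.17 in BSG and -0.26 and 0.06 in GSG. Of the receptors and binding partners of CXC chemokines 10 of 11 were measured and 0 were called, with medians at 20 weeks of 0.06 in BSG and 0.01 in GSG. Cxcr2, the receptor of Cxcl1, Cxcl2 and Cxcl5, had 0.09 in BSG and 0.13 in GSG, Cxcr4 had 0.03 and 0.68, and Ackr3, the scavenger of Cxcl12, had 0.24 and -0.06.

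Of the CC, CX3C and XC chemokines 21 of 23 were measured. Of these, 2 rose in BSG at 20 weeks, where 0.431% of all oligonucleotides rose, and 5 rose in GSG, where 0.713% did, and 0 fell in either. Their median was 0.38 in BSG and 0.35 in GSG. Ccl8, an attractant of monocytes, rose in both, with 1.98 and 1.34 in the BSG mice and 2.55 and 3.27 in the GSG mice (estimates 1.66, adjusted p = 0.0270, and 2.91, adjusted p = 3.4e-05). Ccl11, or eotaxin, rose in BSG (1.19, adjusted p = 0.0191), with 1.89 and 0.50 in the BSG mice and 0.96 and 0.81 in the GSG mice, and Ccl6 (2.66), Ccl9 (2.05), Ccl7 (1.57) and Ccl24 (0.77) rose in GSG. Ccl2, the main attractant of monocytes, had 2.92 and 0.81 in the BSG mice and 1.84 and 1.61 in the GSG mice and was not called (adjusted p = 0.148 in BSG and 0.126 in GSG). In Ccl2, Ccl6 (2.52 and 1.14), Ccl8 and Ccl11 the BSG mouse of loop 1 was again the higher of its pair. Whether CXC and CC genes differ was not tested.

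**Figure D5:**
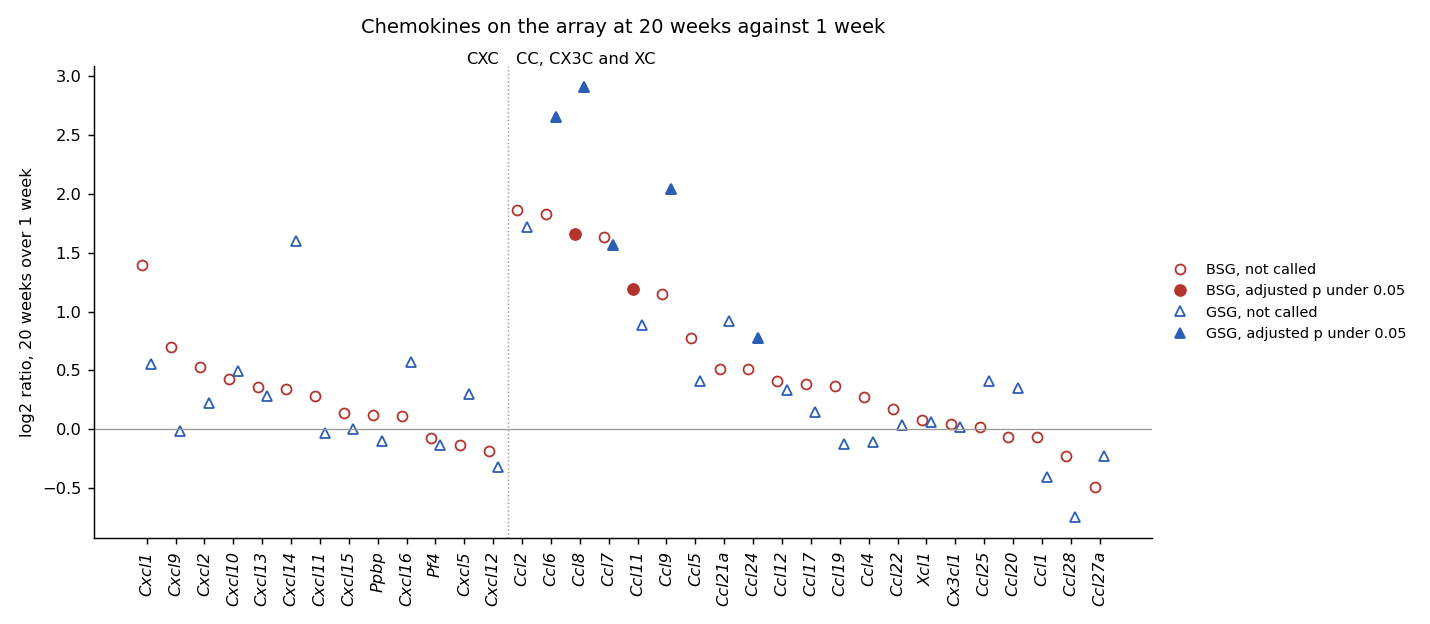
Log2 ratio of 20 weeks over 1 week (y axis) for the 13 CXC and the 21 CC, CX3C and XC chemokines on the array (x axis, ordered by the BSG estimate within each family), BSG as red circles and GSG as blue triangles. Filled symbols passed an adjusted p of 0.05: Ccl8 and Ccl11 in BSG, and Ccl8, Ccl6, Ccl9, Ccl7 and Ccl24 in GSG, with no CXC gene among them.

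The routes that control the members were read from lists of their genes. Of 18 measured genes of the NF-kappa-B and cytokine route to Cxcl1, Cxcl2 and Cxcl5, 1 rose in BSG at 20 weeks (Il6) and 0 in GSG. Of all oligonucleotides 0.431% rose in BSG and 0.713% in GSG. Tnf had 0.10 and 0.57 in the BSG mice and 0.67 and 0.46 in the GSG mice, and Tnfaip3, an inhibitor induced by NF-kappa-B, had 0.05 and -0.04 in BSG and 0.30 and -0.19 in GSG. Of 12 measured genes of the interferon gamma route, 0 were called. In BSG all 12 estimates were above 0, with a median of 0.31 (all oligonucleotides -0.02), but in each BSG mouse alone 10 of the 12 were above 0. GSG had 8 of 12 above 0 and a median of 0.10 (all oligonucleotides -0.01). The medians by mouse were 0.52 and 0.19 in the BSG mice and 0.04 and 0.05 in the GSG mice, so the list, like Cxcl9, was highest in the mouse of BSG loop 1. Psmb8, a subunit of the immunoproteasome, had 0.67 and 0.44 in BSG and 0.36 and 0.40 in GSG. In the lymphotoxin route to Cxcl13 0 of 9 genes were called, with medians of 0.01 in BSG and -0.07 in GSG. Of the 9 estimates 6 were above 0 in BSG and 2 in GSG. Il7r had 1.59 and 0.81 in BSG and 0.36 and 1.13 in GSG, whereas Tnfsf14 had 0.06 and -0.07 in BSG and -0.02 and -0.37 in GSG. In the hypoxia and stromal list for Cxcl12 0 of 10 were called, with medians of -0.02 in BSG and 0.06 in GSG.

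Markers of the cells that make or answer these chemokines were read beside them. Of 12 macrophage markers measured, 10 had an estimate above 0 in BSG (median 0.70, 0 called) and 11 in GSG (median 0.44), where Mpeg1, Lgals3 and Cd68 rose. By mouse the BSG medians were 0.93 and 0.42 and the GSG medians 0.42 and 0.64, so in BSG it was higher in the mouse with the high Cxcl1. Of 12 neutrophil markers 0 were called, with medians by mouse of 0.06 and -0.12 for BSG against 0.01 and 0.09 for GSG, and with values from -0.48 to 0.89 in the mouse of BSG loop 1. S100a8, a granule protein of neutrophils, had 0.40 and -0.79 in BSG and 1.34 and -0.16 in GSG. T and natural killer cell markers had medians of 0.23 and 0.06 in BSG and 0.14 and 0.01 in GSG (0 of 11 called), and B cell markers 0.18 and 0.15 in BSG and 0.01 and -0.21 in GSG (0 of 7 called). Platelet markers, of which Pf4 is one, had medians of -0.05 and 0.00 in BSG and 0.14 and -0.05 in GSG (0 of 8 called). Fibroblast markers, from cells that make Cxcl12, had medians of 0.38 and -0.32 in BSG and -0.44 and -0.19 in GSG, and Col1a1 fell in both strains (BSG -1.66 with adjusted p = 0.0237, GSG -2.13 with adjusted p = 0.000998) while Postn (-2.16, adjusted p = 0.0029) and Fap (-0.89, adjusted p = 0.0466) fell in GSG. Endothelial markers, a further source of Cxcl12, had medians of -0.49 and -0.31 in BSG and -0.54 and -0.57 in GSG, and Cldn5 fell in both strains (BSG -0.999 with adjusted p = 0.0331, GSG -1.07 with adjusted p = 0.00905). Of 3 blood markers Alas2 fell in GSG (-0.80, adjusted p = 0.0397) and had -0.86 in BSG. The share of all oligonucleotides called at 20 weeks in either direction was 1.28% in BSG and 3.74% in GSG. The part of these cell types in the members' values was not tested.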

How the data were processed

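The deposited values are log ratios of the 2 channels of each array, taken here as log2 of Cy5 over Cy3. The authors amplified RNA from quadriceps linearly, coupled Cy3 or Cy5, hybridised it to a printed oligonucleotide library and normalised for spatial, dye and array effects with the smida package; the base of the logarithm is not given in the sources used here. That step sets the scale of every ratio.

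Loops were read from the numbering of the sample titles, given that the methods describe loops of 9 mice and 2 mice per age and strain, which are separate animals. The 16416 spots were averaged in pairs, and the 80 pairs of a repeated control oligonucleotide were averaged to 1 row. This gave 8129 oligonucleotides, of which 6752 had 1 gene symbol, 7 several and 1370 none here. A linear model with 16 parameters was fitted to 36 arrays with limma 3.58.1 in R 4.3.3, which gave each age against 1 week within a strain, and p-values were adjusted by Benjamini-Hochberg over all oligonucleotides (threshold 0.05). A closed loop cancels a constant dye bias. The Hotelling tests used the variance of each strain. Values per mouse came from each loop solved alone. Tables were handled in Python 3.11.15. The statistics were tested on simulated data.

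The members and gene lists were chosen with earlier results of these data known. Named were every member, the 3 genes with the most similar course to each, and up to 3 genes per list with the smallest p of the F test. Genes called within a list and S100a8 were named after their values were seen. Alternatives covered centring, scaling, a dye term, array weights, single spots, spot and loop correlation, single mice, the spread, the time scale and leaving out each loop. Leaving out arrays with discordant spots, or those of the 20-week mouse of BSG loop 1, was added after seeing the data.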

Additional observations from a re-analysis of the deposited data

How the results depend on the processing

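There were 2 mice per age and 1 closing array behind each 20-week value. The recomputed values were estimates and counts of calls together, and the same gene can enter several of them. Of these, 437 kept their direction and side of the threshold or, for counts, kept the reported count. In 14 an estimate changed sign. A further 16 passed a threshold that the reported estimate did not pass or, for counts, exceeded the reported count. Cxcl1, Cxcl9, Cxcl10, Cxcl12 and Cxcl13 changed their call in some settings. The count of members with any change in BSG, 0 in the report, was 4 with array quality weights and 1 with the spots kept apart by duplicateCorrelation (Cxcl1). Of all oligonucleotides 526 and 188 were called in these settings, against 8 in the report. The count of BSG pairs of member and age was 2 with weights and 1 with duplicateCorrelation. Of all pairs 735 and 484 were called, against 112 in the report, so calls rose over the whole array. Fits without a loop leave 1 mouse per age in that strain and are given by their values only. Taking 1 value per mouse, which treats ages that share a 1-week mouse as independent, called 2 members for the mean of the later ages in BSG (Cxcl1 and Cxcl12) and 1 in GSG (Cxcl12), beside 2437 and 2859 of all oligonucleotides. Without BSG loop 2, the difference of BSG and GSG in Cxcl1 at 20 weeks was 2.11, a value that rests on 1 BSG mouse. The 20-week estimate of Cxcl1 in BSG was 2.004 with weights (adjusted p = 0.00604) and 1.40 with duplicateCorrelation (adjusted p = 0.00205), and that of Cxcl9 was 0.92 with weights (adjusted p = 0.0399). The duplicateCorrelation fit used 1 correlation of 0.407 for the spots of all oligonucleotides, where those of Cxcl1 correlated at 0.863. It may thus treat the spots of Cxcl1 as more independent than they are, which makes its p too small.

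Left out 1 loop at a time, the 20-week values in BSG lay between 0.13 and 2.67 for Cxcl1, -0.0634 and 1.11 for Cxcl2, -0.42 and 0.15 for Cxcl5, 0.06 and 1.34 for Cxcl9, and -0.0883 and 0.81 for Cxcl13. In GSG they lay between -0.27 and 0.72 for Cxcl2, -0.14 and 0.11 for Cxcl9, and -0.30 and 0.0347 for Pf4. Without the arrays of the 20-week mouse of BSG loop 1, Cxcl2 was -0.11, Cxcl5 0.0730 and Cxcl13 -0.10 in BSG. From the first spots alone Cxcl9 was 0.13 and Pf4 0.20 in GSG, and from the second spots Cxcl2 was -0.12. Without the arrays of discordant spots, Cxcl9 at 20 weeks was 0.0419 and the mean of Cxcl12 0.12 in GSG. That fit leaves the GSG loops open, so a constant dye bias does not cancel in it. The cause of these changes was not tested. With the loop as a random replicate block (estimated correlation 0.107) the Cxcl1 estimate in BSG was 1.40 and 0 members were called. Loop numbers name no shared animals between the strains, so they pair nothing across BSG and GSG.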
